A study of Mus musculus with 8 samples.

Results

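The nuclear genes of the oxidative phosphorylation complexes were examined in mouse lung RNA after bleomycin, in Slc15a3 knockout and wild-type mice. The genes were the rows that the authors' table annotates to the KEGG oxidative phosphorylation pathway mmu00190, less those whose symbol begins with Atp6v, the subunits of the V-type proton pump. This rule kept 97 of the pathway's 118 rows, of 18824 genes in the table. They comprise 38 genes of complex I, 4 of complex II, 9 of complex III, 20 of complex IV, 4 of complex IV assembly, 15 of complex V and 7 others. The table held 0 rows for the mitochondrially encoded subunits, which are not analysed here.

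Oxidative phosphorylation takes place in the inner mitochondrial membrane. Complexes I to IV pass electrons from NADH and succinate to oxygen, complexes I, III and IV pump protons on the way, and complex V, the ATP synthase, uses the returning protons to make ATP. Several complex IV subunits exist as a widely expressed form and a form restricted to heart and skeletal muscle, lung or testis. In lung, alveolar type 2 and ciliated cells are rich in mitochondria.

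The KO_BLM group (4 libraries) came from Slc15a3-/- mice and the WT_BLM group (4 libraries) from wild-type mice. SLC15A3 is a proton-coupled histidine and peptide transporter of endolysosomes, and the series concerns its role in pulmonary fibrosis. Both groups received bleomycin, a DNA-breaking drug that scars rodent lung, at 8 weeks of age (2 mg/kg in 50 µl saline, intratracheal, day 0), and lungs were taken on day 21. Saline controls are not analysed here, so each difference is one between injured lungs of the 2 genotypes. The sources used here do not give how the knockout was made, or the sex and strain of the mice. The labels do not state that each library came from a separate mouse, so p-values measure the spread between libraries.

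Total counts per library were 17627999 to 18471445 in KO_BLM and 18878835 to 20180831 in WT_BLM. Slc15a3 had 8, 5, 18 and 15 counts in KO_BLM libraries, against 935, 1124, 974 and 841 counts in WT_BLM libraries. Lung markers were present in every library. The sum of 12 alveolar type 2 markers was 24813 to 37905 CPM (counts normalised to library size) in KO_BLM and 10025 to 14152 CPM in WT_BLM, and 10 of the 12 were higher in KO_BLM. Of 11 macrophage markers 9 were lower in KO_BLM, with a sum of 1180 to 1726 CPM in KO_BLM and 2578 to 4473 CPM in WT_BLM. All 8 activated fibroblast markers were lower as well. By the test described below, 20.7% of all tested genes were higher and 20.8% lower. In whole lung, fewer cells of a type and less RNA per cell cannot be told apart, and the part of these shifts in the results below was not tested.

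Of the 97 genes, 93 passed the filter on low counts, and 27 of them differed between the genotypes at an adjusted p under 0.05 (edgeR quasi-likelihood test, Benjamini-Hochberg over all genes). The 7 higher genes were Cox6a2, Cox8b, Cox7a1, Cox6b2, Cox17, Ndufb3 and Ndufs7. The 20 lower genes included 7 of complex V and 3 each of complexes I, III and IV. This share, 29.0%, was below the 41.5% of all tested genes that were called, of which 20.7% were higher and 20.8% lower. The genes did not overlap between the groups in 34 of 93 cases, or 36.6%, against 40.9% of all tested genes. The changes among lower genes were small. The lower calls had log2 fold changes of -0.70 to -0.24, and the median log2 fold change was -0.08 for the 93 genes and 0.00 for all tested genes.

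The split between higher and lower calls depended on the scaling of the libraries. When library totals alone were used, without TMM, 11 of the genes were called higher and 6 lower, their median was 0.01, and the median of all tested genes shifted to 0.09. Among the calls, 64.7% were then higher for these genes and 62.7% for all tested genes, against 25.9% and 50.0% with TMM. In the fits to deposited FPKM values, which carry no such factors, 12 to 13 were higher and 6 to 7 lower. There 63.2% to 66.7% of the calls among these genes were higher, against 61.9% to 63.1% of the calls among all genes. Relative to all tested genes, the median log2 fold change of the oxidative phosphorylation genes was lower in each of the 23 alternatives, the difference being -0.13 to -0.01. A change of library factors shifts all genes by about the same amount, so the scaling alternatives could not test this difference. All 23 also reuse the same libraries. Of the 27 calls, 10 held in all 23 alternatives: Cox6a2, Cox8b, Cox6b2, Cox17 and Ndufb3 were higher, and Atp5g1, Atp5g3, Atp5l, Ppa1 and Tcirg1 lower. Without KO_BLM replicate 2 the lower calls numbered 5, without KO_BLM replicate 1 or WT_BLM replicate 1 they numbered 10, and without KO_BLM replicate 4 they numbered 12.

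**Figure D1:**
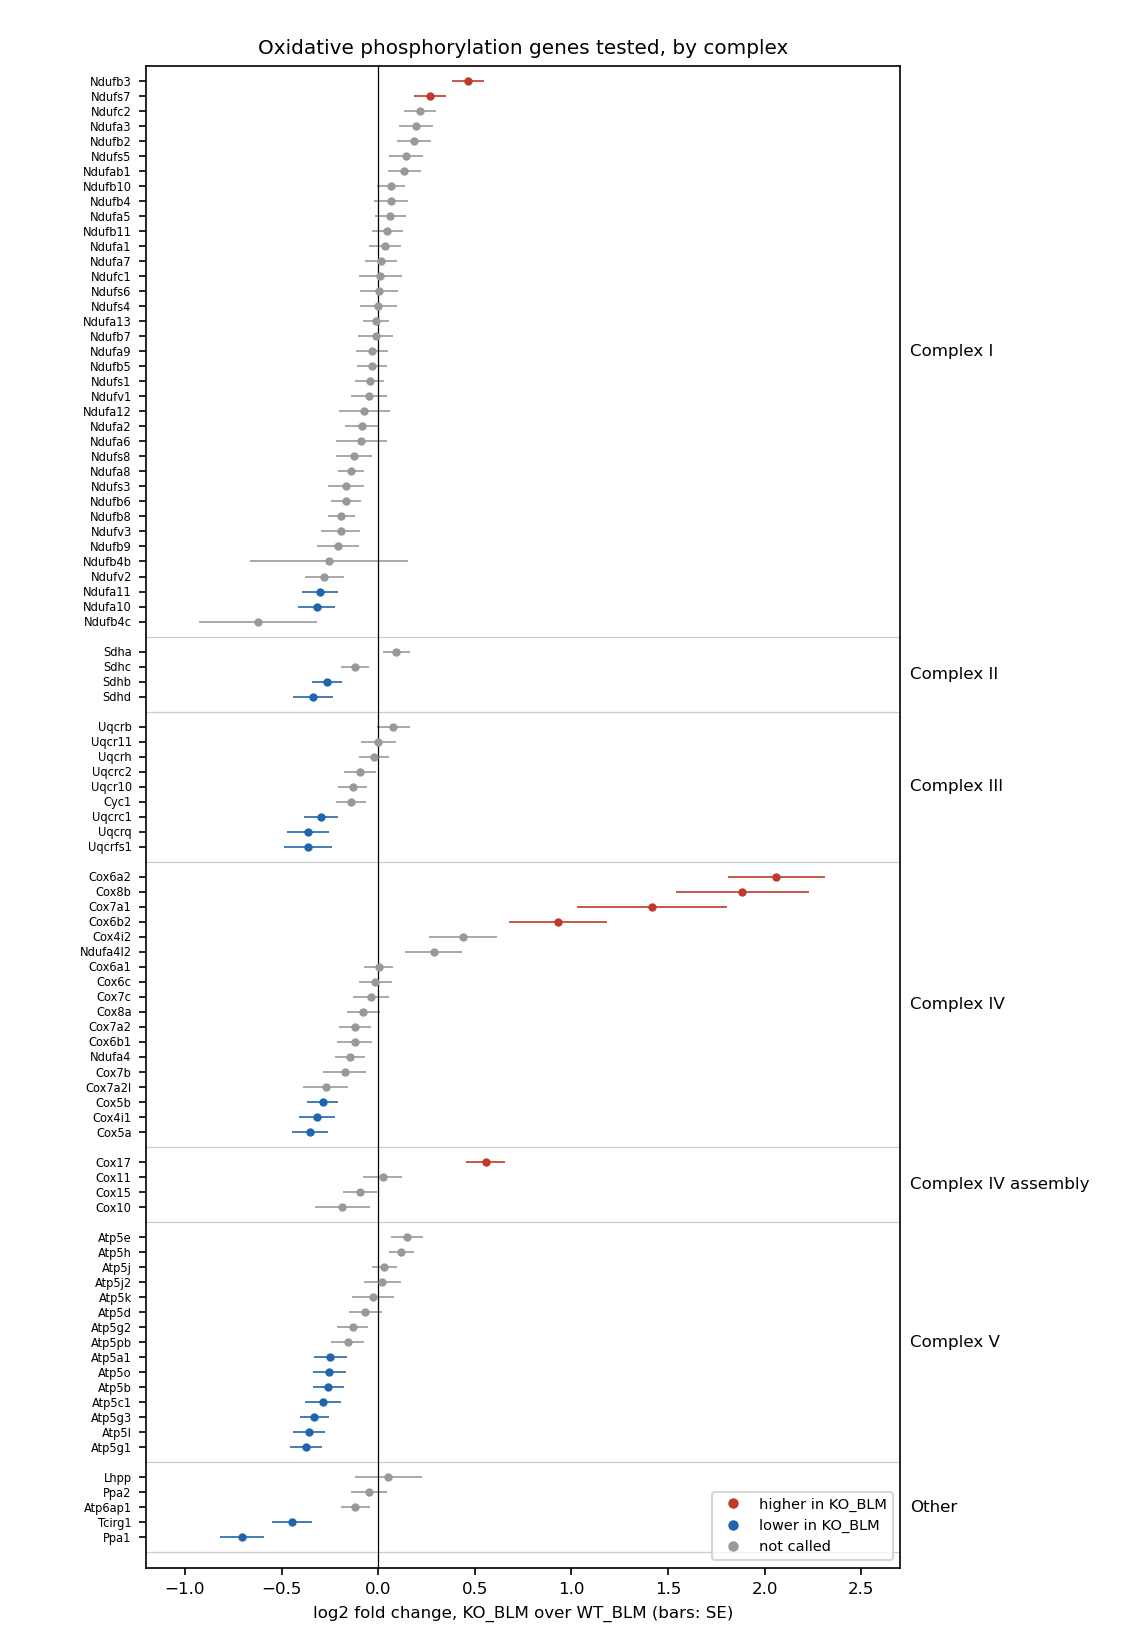
Log2 fold change of KO_BLM over WT_BLM (x axis) for 92 of the 93 tested genes (rows, grouped by complex), with points at the edgeR estimate and bars for its standard error. The 4 large increases are Cox6a2, Cox8b, Cox7a1 and Cox6b2 of complex IV, and all 7 called genes of complex V lie below 0.

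Summed over each complex, the mean CPM of the KO_BLM libraries differed from that of the WT_BLM libraries by -12.1% (complex V) to -3.41% (complex I). Complex V summed to 2229 ± 149 CPM in KO_BLM and 2536 ± 59.4 CPM in WT_BLM (SD, n = 4 each). On this TMM scale it was the only one of the 5 whose sums did not overlap between the groups. Complex III summed to 680 ± 42.4 CPM in KO_BLM and 763 ± 32.1 CPM in WT_BLM, and complex I to 1979 ± 85.6 CPM in KO_BLM and 2049 ± 84.8 CPM in WT_BLM. The sums of complexes I to IV overlapped. No test was made of these sums, which use TMM factors. As a plain share of total counts the 97 genes took 0.718%, 0.726%, 0.828% and 0.788% in KO_BLM, against 0.776%, 0.795%, 0.789% and 0.790% in WT_BLM, and these shares overlapped. KO_BLM replicate 3 was the highest knockout library in all 5 complexes. In that library 22 of the 93 genes lay below their mean over the 8 libraries, against 67, 76 and 54 in KO_BLM replicates 1, 2 and 4 and 31 to 44 in the WT_BLM libraries. The sum of 82 cytosolic ribosomal protein genes was also highest among knockout libraries in KO_BLM replicate 3, at 29182 CPM, against 25962 to 26533 CPM in the others. Its part in the levels of the complexes was not tested.

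**Figure D2:**
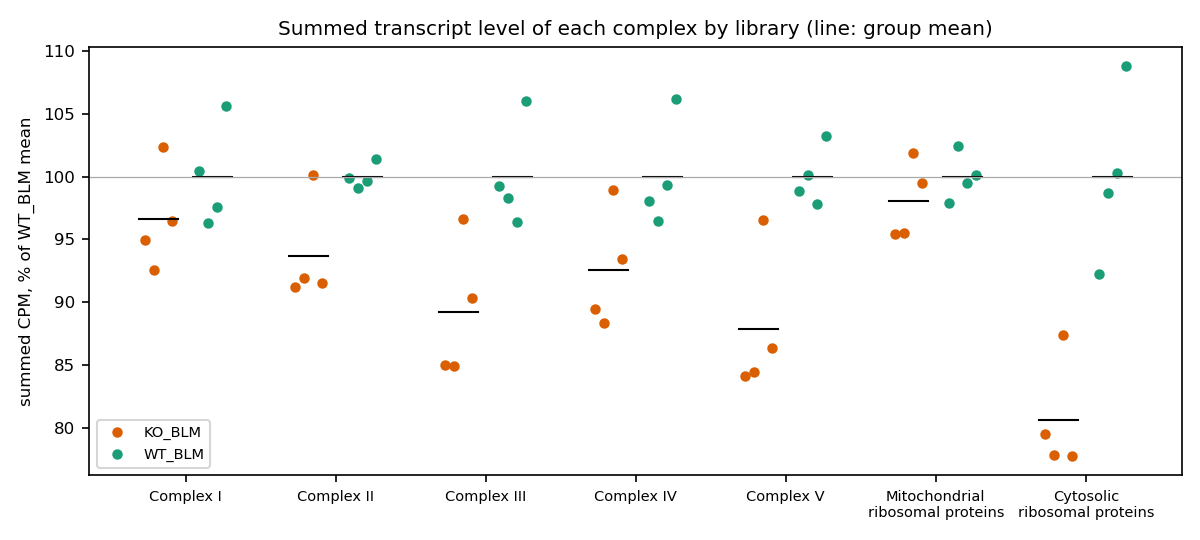
Summed CPM of each complex by library, as a percentage of the WT_BLM mean (y axis, not starting at 0), with KO_BLM left of WT_BLM, 1 point per library and a line at the group mean. KO_BLM means differ from WT_BLM means by -3.41% (complex I) to -12.1% (complex V), and KO_BLM replicate 3 is the highest knockout point in each of the 5 complexes.

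In complex I, which oxidises NADH, 5 of 38 genes were called, 2 higher and 3 lower, with a median log2 fold change of -0.03. The called share was 13.2%, against 41.5% of all tested genes. Ndufb3, an accessory subunit of the membrane arm, had 39.8, 38.2, 39.8 and 44.7 CPM in KO_BLM libraries, against 28.5, 28.7, 28.1 and 32.4 CPM in WT_BLM libraries. The groups were apart, and Ndufb3 rose by a log2 fold change of 0.47 (SE 0.08, adjusted p = 0.0024). Ndufs7, the core subunit that passes electrons to ubiquinone, had 70.2, 65.2, 66.2 and 56.2 CPM in KO_BLM, against 53.4, 51.8, 54.3 and 54.4 CPM in WT_BLM. KO_BLM replicate 4 lay just above the wild-type libraries, and the log2 fold change of Ndufs7 was 0.27 (SE 0.08, adjusted p = 0.025). The lower genes included the accessory subunits Ndufa10 and Ndufa11. Ndufa10 had 51.1, 53.5, 56.4 and 47.2 CPM in KO_BLM, against 67.5, 61.1, 58.1 and 73.1 CPM in WT_BLM. Ndufa11 had 51.2 to 67.1 CPM in KO_BLM and 67.4 to 75.3 CPM in WT_BLM. In both genes the groups were apart, and the log2 fold changes were -0.32 for Ndufa10 (adjusted p = 0.022) and -0.30 for Ndufa11 (adjusted p = 0.026).

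The complex I genes of highest level per length, Ndufa7 and Ndufa3, were not called. Ndufa7 averaged 158 FPKM (fragment counts divided by library size and transcript length) in KO_BLM and 147 FPKM in WT_BLM, and Ndufa3 163 FPKM in KO_BLM and 134 FPKM in WT_BLM. Ndufa3 was called higher with library totals alone (adjusted p = 0.04). Ndufb4b and Ndufb4c, related copies of Ndufb4, stayed at or below 2.02 CPM in every library, and reads may be shared between the copies. Without KO_BLM replicate 1, 2 or 4 or WT_BLM replicate 1 the calls of Ndufa10 and Ndufa11 were lost (adjusted p = 0.051 to 0.086). That of Ndufs7 was lost without KO_BLM replicate 1, 2 or 3 or WT_BLM replicate 1 or 2 (0.054 to 0.073), and with the length trend removed (0.094; 0.14 with the replicate block as well).

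In complex II, which oxidises succinate and also works in the TCA cycle, the iron-sulphur subunit Sdhb and the membrane anchor Sdhd were lower. That is 2 of 4 genes, or 50.0% called, against 41.5% of all tested genes. Sdhb had 72.3, 69.1, 83.2 and 74.1 CPM in KO_BLM, against 90.5, 87.6, 87.4 and 93.1 CPM in WT_BLM. Sdhd had 62.9, 67.3, 83.5 and 72.9 CPM in KO_BLM, against 88.6, 87.2, 84.9 and 101 CPM in WT_BLM. For both genes every knockout library lay below every wild-type library, with KO_BLM replicate 3 closest to them. The log2 fold change was -0.26 for Sdhb (SE 0.08, adjusted p = 0.022) and -0.34 for Sdhd (SE 0.10, adjusted p = 0.025). Sdha, the flavoprotein that binds succinate, had a log2 fold change of 0.09 (adjusted p = 0.31) and the anchor Sdhc of -0.12 (adjusted p = 0.21), and neither was called. Both calls were lost with library totals alone (adjusted p = 0.10 for Sdhb and 0.082 for Sdhd) and without KO_BLM replicate 1 or 2 (0.058 to 0.080), and that of Sdhb also without WT_BLM replicate 1 (0.056).

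In complex III, which passes electrons from ubiquinol to cytochrome c, 3 of 9 genes were lower and 0 higher. The called share was 33.3%, against 41.5% of all tested genes. Uqcrc1, a core protein on the matrix side, had 115, 118, 131 and 102 CPM in KO_BLM, against 145, 145, 136 and 147 CPM in WT_BLM, a log2 fold change of -0.29 (SE 0.09, adjusted p = 0.022). The groups did not overlap. Uqcrq, a small subunit, had 65.7, 60.3, 76.0 and 82.9 CPM in KO_BLM, against 88.1, 86.5, 89.5 and 102 CPM in WT_BLM (log2 fold change -0.36, adjusted p = 0.024). Uqcrfs1, the Rieske iron-sulphur protein, had 48.9, 51.6, 65.3 and 54.4 CPM in KO_BLM, against 67.1, 65.2, 64.1 and 86.9 CPM in WT_BLM (log2 fold change -0.36, adjusted p = 0.040). Here the groups overlapped at KO_BLM replicate 3, and WT_BLM replicate 4 stood above the rest. Cyc1, cytochrome c1, was not called (log2 fold change -0.14, adjusted p = 0.16). Uqcrh and Uqcr10 had the highest levels per length of the complex, 186 and 130 FPKM in KO_BLM against 177 and 134 FPKM in WT_BLM, and neither was called. All 3 calls were lost with library totals alone (adjusted p = 0.068 to 0.097). They were also lost without KO_BLM replicate 2 (0.054 to 0.11), that of Uqcrc1 also without WT_BLM replicate 1 (0.055), that of Uqcrq without KO_BLM replicate 1 (0.063) or WT_BLM replicate 4 (0.050), and that of Uqcrfs1 without KO_BLM replicate 1 or 4 or WT_BLM replicate 1 or 4 (0.062 to 0.10). Uqcrq overlaps Gdf9 in the annotation, which had 1.05 to 1.34 CPM in KO_BLM and 0.275 to 0.744 CPM in WT_BLM, and the sources used here do not state whether counting was by strand.

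Complex IV, cytochrome c oxidase, held changes in both directions. Of 18 tested genes 4 were higher and 3 lower, or 38.9% called, against 41.5% of all tested genes. The higher genes were all tissue-restricted isoforms: Cox6a2 and Cox8b, forms of heart and skeletal muscle in mouse, Cox7a1, likewise a muscle form, and Cox6b2, a testis form. The lower genes Cox4i1, Cox5a and Cox5b encode widely expressed subunits. Cox6a2 had 16.9, 15.2, 14.9 and 15.6 CPM in KO_BLM, against 6.10, 2.38, 3.0 and 3.54 CPM in WT_BLM. The groups were far apart, and Cox6a2 rose by a log2 fold change of 2.06 (SE 0.25, adjusted p = 0.00030). Cox8b had 1.76, 1.06, 1.82 and 1.72 CPM in KO_BLM, against 0.605, 0.248, 0.321 and 0.545 CPM in WT_BLM, a log2 fold change of 1.88 (SE 0.34, adjusted p = 0.0024). Cox6b2 had 19.998, 21.0, 27.1 and 22.1 CPM in KO_BLM, against 13.8, 12.2, 15.6 and 5.72 CPM in WT_BLM, a log2 fold change of 0.93 (SE 0.25, adjusted p = 0.016). In both the groups were apart. Cox7a1 had 1.60, 0.837, 2.40 and 2.56 CPM in KO_BLM, against 0.770, 0.645, 0.911 and 0.436 CPM in WT_BLM. KO_BLM replicate 2 lay within the wild-type range, and the log2 fold change was 1.42 (SE 0.39, adjusted p = 0.016), but the call was lost with limma-voom (adjusted p = 0.17).

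The promoter windows of Cox8b and Cox6b2 are shown beside those of their widely expressed counterparts Cox8a and Cox6b1. They are 2 of the pairs that differ in how their transcripts moved. Each window runs from 250 bases before to 50 bases after the RefSeq start (assembly GRCm38.p6, all on the minus strand), at chr7:140900397-140900696 for Cox8b, chr19:7217567-7217866 for Cox8a, chr7:4753045-4753344 for Cox6b2 and chr7:30626065-30626364 for Cox6b1. Capitals mark matches to the ETS-family core CCGGAAG on either strand.
Cox8b: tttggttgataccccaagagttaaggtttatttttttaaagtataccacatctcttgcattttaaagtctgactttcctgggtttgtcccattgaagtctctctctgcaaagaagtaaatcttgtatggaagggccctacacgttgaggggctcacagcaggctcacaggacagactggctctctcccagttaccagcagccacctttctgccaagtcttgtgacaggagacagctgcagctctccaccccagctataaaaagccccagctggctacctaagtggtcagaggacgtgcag
Cox8a: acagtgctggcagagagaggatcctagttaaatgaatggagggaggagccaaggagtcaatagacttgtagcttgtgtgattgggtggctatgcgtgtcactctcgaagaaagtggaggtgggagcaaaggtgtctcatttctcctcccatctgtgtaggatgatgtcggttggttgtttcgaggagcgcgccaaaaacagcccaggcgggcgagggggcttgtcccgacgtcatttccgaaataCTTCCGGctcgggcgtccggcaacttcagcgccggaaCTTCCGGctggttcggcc
Cox6b2: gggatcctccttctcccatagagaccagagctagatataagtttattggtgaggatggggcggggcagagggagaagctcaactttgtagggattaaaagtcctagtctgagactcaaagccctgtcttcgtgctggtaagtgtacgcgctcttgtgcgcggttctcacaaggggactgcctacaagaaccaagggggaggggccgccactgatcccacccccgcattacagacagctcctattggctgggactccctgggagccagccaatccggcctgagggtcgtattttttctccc
Cox6b1: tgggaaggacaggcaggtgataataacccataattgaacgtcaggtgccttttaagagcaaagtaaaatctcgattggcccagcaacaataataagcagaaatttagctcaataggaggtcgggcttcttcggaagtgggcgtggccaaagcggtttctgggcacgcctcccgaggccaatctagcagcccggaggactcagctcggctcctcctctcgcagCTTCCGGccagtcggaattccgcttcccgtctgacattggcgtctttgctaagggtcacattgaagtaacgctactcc
Cox8a held 2 matches and Cox6b1 1 match, and Cox8b and Cox6b2 held 0, which says only that these letters are not in these windows. In the pair Cox7a1 and Cox7a2, whose transcripts also moved differently and whose windows are not shown, both members held 0 matches. The GC content was 48.3% for Cox8b, 56.0% for Cox8a, 55.7% for Cox6b2 and 53.0% for Cox6b1.

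Levels within each isoform pair were compared per length, as the share of the restricted form in the summed FPKM of the pair. For Cox6a2 with Cox6a1 the share was 7.20%, 6.59%, 5.59% and 6.51% in KO_BLM, against 2.58%, 1.04%, 1.32% and 1.54% in WT_BLM. For Cox6b2 with Cox6b1 it was 13.7%, 13.4%, 14.5% and 12.3% in KO_BLM, against 7.84%, 6.96%, 9.47% and 3.55% in WT_BLM. In every library the restricted form was the minor member of its pair. Cox4i2, the form known from lung, made up 19.5 ± 3.81% with Cox4i1 in KO_BLM and 12.8 ± 2.51% in WT_BLM (SD, n = 4 each). Cox7a1 with Cox7a2 averaged 4.46 ± 1.60% in KO_BLM and 1.63 ± 0.482% in WT_BLM, and Cox8b with Cox8a 1.47 ± 0.302% in KO_BLM and 0.380 ± 0.154% in WT_BLM. In these 5 pairs the groups did not overlap, and each gave p = 0.0286 (two-sided exact permutation test), the smallest p that 70 arrangements allow, or 0.040 after adjustment over 7 pairs. Ndufa4l2 with Ndufa4 averaged 12.7% in KO_BLM and 9.82% in WT_BLM (exact permutation p = 0.114). Cox7b2 was listed at 0 in 3 WT_BLM libraries and had 1 count in each other library, too few for a comparison.

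**Figure D3:**
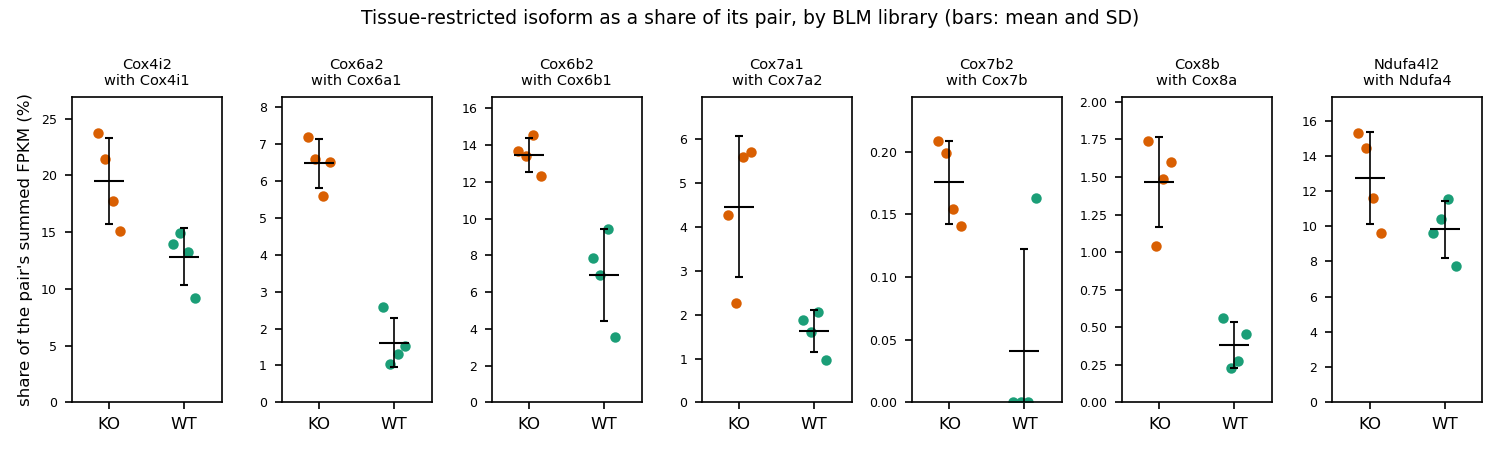
Share of the tissue-restricted isoform in the summed FPKM of each of 7 isoform pairs (y axis, %, a scale per panel), with KO_BLM left of WT_BLM, 1 point per library and bars for the mean and SD. The groups are apart for Cox4i2, Cox6a2, Cox6b2, Cox7a1 and Cox8b and overlap for Cox7b2 and Ndufa4l2.

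As a single gene, Cox4i2 had 69.7, 57.1, 47.9 and 37.9 CPM in KO_BLM, against 42.3, 42.2, 40.6 and 31.6 CPM in WT_BLM. The groups overlapped, and Cox4i2 was not called (log2 fold change 0.44, SE 0.18, adjusted p = 0.068), though it was with library totals alone (0.035) and without KO_BLM replicate 4 (0.016). Ndufa4l2, a hypoxia-responsive relative of Ndufa4, had a log2 fold change of 0.29 (adjusted p = 0.15), and was called without KO_BLM replicate 4 (0.040). Cox4i2 and Ndufa4l2 are known from lung pericytes. The sum of 12 pericyte and smooth muscle markers, Cox4i2 among them, was 1178 to 1548 CPM in KO_BLM and 2181 to 2397 CPM in WT_BLM. Of the 12, 7 were lower and 0 higher, against 20.8% of all tested genes lower and 20.7% higher.

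Lung samples can hold heart muscle around the pulmonary veins. Of 14 cardiac muscle markers 11 were tested and 3 were higher in KO_BLM (Actc1, Ryr2 and Tnni3), and Nppa, Myl2 and Myl3 fell under the filter. The called share was 27.3%, against 41.5% of all tested genes. The median log2 fold change of the 11 was 1.24, with 1 below 0. The sum of these markers was 97.5, 109, 231 and 288 CPM in KO_BLM, against 171, 45.6, 61.4 and 76.1 CPM in WT_BLM. The groups overlapped at WT_BLM replicate 1, which exceeded 2 knockout libraries. Cox6a2 in the same libraries had 16.9 and 15.2 CPM in KO_BLM replicates 1 and 2 and 6.10 CPM in WT_BLM replicate 1. Among wild-type libraries replicate 1 was the highest in this sum and also for Cox6a2 and Cox8b, but not for Cox7a1. Among knockout libraries Cox7a1 was higher in replicates 3 and 4, as the sum was, whereas Cox6a2 was highest in replicate 1. Of 9 skeletal muscle markers Acta1, Myh1, Myh2 and Myh4 fell under the filter, 1 of the 5 tested was higher and 0 lower, and the sum was 6.06 to 11.7 CPM in KO_BLM and 5.17 to 8.30 CPM in WT_BLM. The higher gene was Ckm, muscle creatine kinase, at 0.441, 1.004, 3.91 and 5.37 CPM in KO_BLM, against 0.550, 0.496, 0.696 and 0.381 CPM in WT_BLM (log2 fold change 2.33, adjusted p = 0.023). KO_BLM replicate 1 lay within the wild-type range, and the call was lost with limma-voom (0.20) and without KO_BLM replicate 3 or 4 or WT_BLM replicate 1 or 4 (0.054 to 0.066). Of 6 brown fat markers Ucp1 and Elovl3 fell under the filter, 1 of the 4 tested was higher and 0 lower, and the sum was 34.1 to 36.3 CPM in KO_BLM and 32.0 to 37.6 CPM in WT_BLM. The higher gene was Cidea, a lipid droplet protein, at 0.331 to 1.67 CPM in KO_BLM and 0.198 to 0.654 CPM in WT_BLM (log2 fold change 1.498, adjusted p = 0.042), whose call was lost without KO_BLM replicate 2, 3 or 4 or WT_BLM replicate 1, 2 or 3 (0.080 to 0.12). Of 6 white fat markers 2 were tested, and Cidec, also of lipid droplets, was higher at 2.66 to 6.83 CPM in KO_BLM and 0.546 to 1.48 CPM in WT_BLM (log2 fold change 2.14, adjusted p = 0.0018). Ckm, Cidea and Cidec were named after their values were seen. Ciliated cell markers were higher in all 10 of 10 cases, against 20.7% of all tested genes. Their sum was 493 to 630 CPM in KO_BLM and 148 to 227 CPM in WT_BLM. The part of these cell types in the isoform levels was not tested. Cox6a2 (chr7:128205435-128206366, GRCm38) overlaps Itgad, an integrin gene that was lower in KO_BLM (log2 fold change -2.27, adjusted p = 0.0074) at 0.261 to 0.626 CPM in KO_BLM and 0.599 to 3.21 CPM in WT_BLM.

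Without the restricted isoforms, 3 of 12 complex IV genes were lower and 0 higher. Cox5a had 62.7, 69.4, 78.6 and 79.6 CPM in KO_BLM, against 89.8, 89.4, 90.3 and 101 CPM in WT_BLM (log2 fold change -0.35, SE 0.09, adjusted p = 0.014). Cox5b had 78.3, 75.3, 90.3 and 80.1 CPM in KO_BLM, against 98.9, 96.4, 95.04 and 105 CPM in WT_BLM (log2 fold change -0.29, adjusted p = 0.018). Cox4i1, which binds ATP as a regulator of the enzyme, had 236, 220, 233 and 223 CPM in KO_BLM, against 274, 253, 279 and 328 CPM in WT_BLM (log2 fold change -0.32, adjusted p = 0.020). In each the groups were apart. All 3 calls were lost without KO_BLM replicate 2 (adjusted p = 0.052 to 0.067), and those of Cox5a and Cox5b also with library totals alone (0.060 and 0.073). Per length, Cox6a1 had the highest level of all the genes, at 355 ± 31.2 FPKM in KO_BLM and 334 ± 8.78 FPKM in WT_BLM, and was not called (log2 fold change 0.00, adjusted p = 0.98). Ndufa4, long assigned to complex I and now placed in complex IV, was likewise not called (log2 fold change -0.15, adjusted p = 0.16). Among the other widely expressed counterparts, log2 fold changes were -0.12 for Cox6b1, -0.12 for Cox7a2 and -0.08 for Cox8a, and none was called. Cox7b, the counterpart of Cox7b2, had -0.17 (adjusted p = 0.24) and was called lower with limma-voom (0.023).

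Of the 4 genes of complex IV assembly in the pathway, Cox17, the copper chaperone of the enzyme, was higher. Cox17 had 33.3, 31.8, 32.0 and 36.0 CPM in KO_BLM, against 20.5, 26.6, 22.4 and 21.0 CPM in WT_BLM, a log2 fold change of 0.56 (SE 0.10, adjusted p = 0.0024). The groups were apart. The haem A enzymes Cox10 (log2 fold change -0.18, adjusted p = 0.32) and Cox15 (-0.09, 0.42) and the copper-insertion protein Cox11 (0.02, 0.87) were not called.

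In complex V, the ATP synthase, 7 of 15 genes were lower and 0 higher, and the median log2 fold change was -0.16. The called share was 46.7%, against 41.5% of all tested genes. The groups did not overlap in 8 of the 15 genes, or 53.3%, against 40.9% of all tested genes. The lower genes lay in both parts of the enzyme: Atp5a1 (alpha), Atp5b (beta) and Atp5c1 (gamma) of the catalytic head, Atp5g1 and Atp5g3, which encode an identical mature subunit of the membrane ring, Atp5l (subunit g) of the membrane part and Atp5o of the stalk. Atp5g2, annotated to the same ring subunit, was not called (log2 fold change -0.13, adjusted p = 0.22). It averaged 165 FPKM in KO_BLM and 170 FPKM in WT_BLM. Atp5g1 had 43.7, 43.9, 53.5 and 47.3 CPM in KO_BLM, against 60.3, 63.5, 60.5 and 60.1 CPM in WT_BLM, a log2 fold change of -0.38 (SE 0.08, adjusted p = 0.0062). Atp5g3 had 137, 136, 154 and 144 CPM in KO_BLM, against 183, 174, 177 and 184 CPM in WT_BLM, a log2 fold change of -0.33 (SE 0.07, adjusted p = 0.0063). Atp5l had 78.7, 78.4, 84.1 and 88.6 CPM in KO_BLM, against 101, 99.3, 104 and 118 CPM in WT_BLM, a log2 fold change of -0.36 (SE 0.08, adjusted p = 0.0079). In Atp5g1, Atp5g3 and Atp5l the groups were clearly apart.

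The promoter windows of Atp5g3 (chr2:73911277-73911576) and Atp5l (chr9:44920693-44920992), 2 of these lower genes, are given because they hold matches to motifs known from mitochondrial gene promoters. They are on the minus strand and run, as above, from 250 bases before to 50 after the RefSeq start in GRCm38.p6. Capitals mark the NRF1 consensus motif in Atp5g3 and the ETS core CCGGAAG, on either strand, in Atp5l.
Atp5g3: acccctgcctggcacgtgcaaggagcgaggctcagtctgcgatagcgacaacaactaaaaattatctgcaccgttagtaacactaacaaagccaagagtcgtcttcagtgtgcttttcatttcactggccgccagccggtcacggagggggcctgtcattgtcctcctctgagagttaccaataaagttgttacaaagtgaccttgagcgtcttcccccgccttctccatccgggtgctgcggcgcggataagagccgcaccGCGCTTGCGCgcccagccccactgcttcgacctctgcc
Atp5l: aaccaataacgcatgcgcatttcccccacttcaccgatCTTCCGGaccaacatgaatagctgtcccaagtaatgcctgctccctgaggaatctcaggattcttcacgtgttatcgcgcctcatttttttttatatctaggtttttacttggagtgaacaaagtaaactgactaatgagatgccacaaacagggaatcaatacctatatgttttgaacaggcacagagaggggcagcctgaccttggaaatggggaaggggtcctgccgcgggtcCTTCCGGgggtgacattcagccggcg
Over all genes, 77 of the 97 had a window. The NRF1 motif, searched on both strands, stood in 17 windows, or 22.1%, against 9.40% of the 11669 tested genes with a window. It stood in 6 of 16 lower genes, 0 of 5 higher genes and 11 of 54 genes not called. The ETS core stood in 22.1% of the windows against 16.5% of all, and in 3 of 16 lower, 0 of 5 higher and 14 of 54 genes not called. The YY1 motif AAGATGGCG stood in 9.09% against 2.83%, and in 0 of 16 lower, 1 of 5 higher and 6 of 54 genes not called. For the MEF2 motif, known from muscle genes, the pattern searched left the middle positions open to any base, which is looser than the consensus. This loose pattern stood in 1.30% against 2.96%, its only match being in a lower gene, and a match need not be a MEF2 motif. These 4 motifs were searched separately, the median GC content was 58.3% for the 77 windows and 60.3% for all, and a match is not a binding site.

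The catalytic subunit Atp5b had 444, 457, 502 and 434 CPM in KO_BLM, against 540, 554, 521 and 580 CPM in WT_BLM (log2 fold change -0.26, SE 0.08, adjusted p = 0.029). Atp5a1 had 439, 428, 492 and 412 CPM in KO_BLM, against 518, 520, 507 and 557 CPM in WT_BLM (log2 fold change -0.25, adjusted p = 0.039). Atp5c1 had 122 to 157 CPM in KO_BLM and 160 to 171 CPM in WT_BLM, and Atp5o 90.0 to 110 CPM in KO_BLM and 112 to 121 CPM in WT_BLM, with log2 fold changes of -0.29 and -0.25. In these 4 genes, too, the groups did not overlap, and KO_BLM replicate 3 was the highest knockout library. Atp5e (epsilon) had the highest level per length among the subunits not called, 253 FPKM in KO_BLM and 215 FPKM in WT_BLM, with a log2 fold change of 0.15 (adjusted p = 0.16). Only Atp5g1, Atp5g3 and Atp5l of the 7 calls held with library totals alone, and likewise without any 1 of KO_BLM replicates 1, 2 and 4 and WT_BLM replicates 1, 2 and 4. Without WT_BLM replicate 3 the calls numbered 5.

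**Figure D4:**
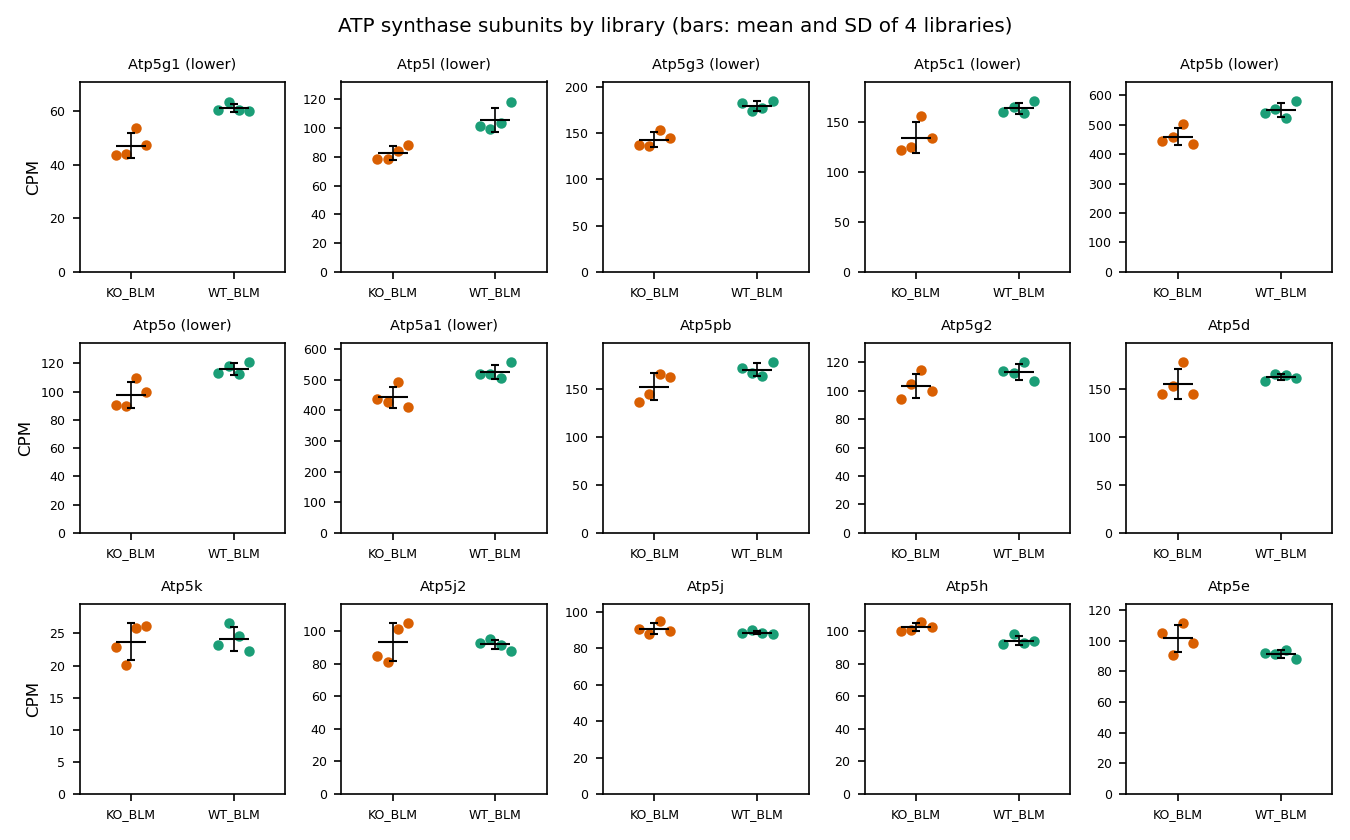
CPM of the 15 ATP synthase subunit genes (y axis, a scale from 0 per panel), with KO_BLM left of WT_BLM, 1 point per library and bars for the mean and SD. In the 7 genes marked lower every KO_BLM library lies below every WT_BLM library, and the other 8 genes were not called.

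Of the 7 other genes in the pathway, Ppa1 and Tcirg1 were lower. That is 40.0% of the 5 tested, against 41.5% of all tested genes called. Ppa1, the cytosolic inorganic pyrophosphatase, had 23.2, 23.9, 27.1 and 31.4 CPM in KO_BLM, against 40.6, 43.1, 39.9 and 48.6 CPM in WT_BLM. The groups were apart, and Ppa1 fell by a log2 fold change of -0.70 (SE 0.11, adjusted p = 0.0013), the largest decrease among the 93 genes. Tcirg1, a membrane subunit of the V-type proton pump that the rule keeps because of its symbol, had 141, 152, 161 and 171 CPM in KO_BLM, against 236, 197, 231 and 186 CPM in WT_BLM (log2 fold change -0.44, SE 0.10, adjusted p = 0.0077). The mitochondrial pyrophosphatase Ppa2 (log2 fold change -0.05, adjusted p = 0.70) and the proton pump accessory protein Atp6ap1 (-0.12, 0.22) were not called. The proton pumps Atp4a and Atp12a, with Cox7b2 and Cox8c, fell under the filter.

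Genes outside the pathway list that serve the complexes were read from the same fit. Among 26 tested assembly factors of complexes II to V, 5 were higher (Coa3, Surf1, Bcs1l, Cox14 and Uqcc1) and 2 lower (Ttc19 and Sdhaf1), with a median log2 fold change of 0.12. The called share was 26.9%, against 41.5% of all tested genes. Coa3, an early complex IV assembly factor, had 50.7, 50.5, 53.1 and 50.3 CPM in KO_BLM, against 34.3, 39.3, 38.7 and 27.6 CPM in WT_BLM (log2 fold change 0.55, SE 0.11, adjusted p = 0.0039). Surf1, also of complex IV, had 42.7, 43.1, 46.7 and 38.6 CPM in KO_BLM, against 32.6, 32.6, 34.8 and 32.9 CPM in WT_BLM (log2 fold change 0.37, adjusted p = 0.0058). Both were apart between the groups. Bcs1l, which inserts the Rieske protein into complex III, rose by 0.62 (adjusted p = 0.021), and Ttc19, a complex III factor, was lower at 8.70 to 10.8 CPM in KO_BLM and 13.5 to 19.0 CPM in WT_BLM (log2 fold change -0.66, adjusted p = 0.0051). Sdhaf1, which serves the iron-sulphur centres of Sdhb, had a log2 fold change of -0.36 (adjusted p = 0.021). Of 14 complex I assembly factors 2 were higher and 0 lower, or 14.3% called. Ndufaf3 had a log2 fold change of 0.42 (adjusted p = 0.0045) and Ndufaf8 of 0.34 (adjusted p = 0.041). Without single libraries, calls were lost for Bcs1l (KO_BLM replicate 1, adjusted p = 0.051), Uqcc1 (KO_BLM replicate 4, 0.050), Cox14 (KO_BLM replicate 2 or 4 or WT_BLM replicate 2, 0.050 to 0.054), Sdhaf1 (KO_BLM replicate 1 or 2, 0.053 and 0.072; 0.071 with library totals alone) and Ndufaf8 (all but KO_BLM replicate 3 and WT_BLM replicate 2, 0.055 to 0.10).

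Of 18 TCA cycle genes 4 were lower and 0 higher, or 22.2% called, against 41.5% of all tested genes (20.8% lower). They were Mdh2, malate dehydrogenase (log2 fold change -0.27, adjusted p = 0.018), Dlat, of pyruvate dehydrogenase (-0.35, 0.022), Cs, citrate synthase (-0.25, 0.036), and Dlst, of 2-oxoglutarate dehydrogenase (-0.20, 0.046). Mdh2 had 139 to 164 CPM in KO_BLM and 176 to 181 CPM in WT_BLM. These calls were lost without KO_BLM replicate 2 (adjusted p = 0.052 to 0.090), those of Dlat and Cs also without KO_BLM replicate 1 or 4 or WT_BLM replicate 1 (0.053 to 0.092), that of Cs without WT_BLM replicate 2 or 3 (0.090 and 0.061), and that of Dlst without any 1 of the 8 libraries (0.053 to 0.12). With library totals alone those of Mdh2 (0.079), Cs (0.17) and Dlst (0.20) were lost. Among 19 tested electron and nucleotide carriers, 2 were higher and 3 lower, or 26.3% called. Slc25a5, the widely expressed ADP/ATP carrier, had 177, 202, 239 and 199 CPM in KO_BLM, against 278, 265, 263 and 312 CPM in WT_BLM (log2 fold change -0.45, SE 0.11, adjusted p = 0.0078), with the groups apart. Slc25a4, the ADP/ATP carrier of heart and muscle (-0.32, 0.017), and the phosphate carrier Slc25a3 (-0.24, 0.028) were lower too, both not called without KO_BLM replicate 2 (0.057 and 0.085), and Slc25a3 also not without KO_BLM replicate 1 or 4 or WT_BLM replicate 1 or 2 (0.051 to 0.071). Both calls were lost with library totals alone (0.061 for Slc25a4 and 0.11 for Slc25a3). Coq2, an enzyme of ubiquinone synthesis, was higher (log2 fold change 0.33, adjusted p = 0.0054), as was the electron transfer flavoprotein subunit Etfb (0.21, 0.041), whose call was lost without KO_BLM replicate 1, 2 or 3 or WT_BLM replicate 1 or 4 (0.072 to 0.11) and with the length trend removed (0.099). Cycs, cytochrome c (log2 fold change -0.11, adjusted p = 0.32), and Ucp2, an uncoupling protein relative (-0.26, 0.33), were not called, although Ucp2 was without KO_BLM replicate 3 (0.040).

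Among 17 tested regulators of mitochondrial biogenesis, 3 were higher and 2 lower, or 29.4% called, against 41.5% of all tested genes. Tfb1m, which methylates mitochondrial ribosomal RNA, had 6.17 to 6.53 CPM in KO_BLM and 1.91 to 4.45 CPM in WT_BLM (log2 fold change 1.01, SE 0.24, adjusted p = 0.0095). Ppara, a nuclear receptor of fatty acid oxidation (0.97, 0.013), and Sirt3, a mitochondrial deacetylase (0.50, 0.022, lost without KO_BLM replicate 2 at 0.071), were also higher. The coactivators Ppargc1b (-0.83, 0.0049) and Pprc1 (-0.43, 0.017) were lower. Their relative Ppargc1a (log2 fold change 0.33, adjusted p = 0.30), the mitochondrial transcription factor Tfam (0.09, 0.36) and Nrf1 (0.03, 0.85) were not called.

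Of 10 regulators of the chain outside the pathway list, Chchd10 was higher and AA467197 lower. The other 8 were not called, whereas 41.5% of all tested genes were called. Chchd10, a protein of the intermembrane space, had 70.1, 80.4, 73.0 and 72.0 CPM in KO_BLM, against 41.2, 32.2, 39.6 and 46.4 CPM in WT_BLM (log2 fold change 0.89, SE 0.11, adjusted p = 0.00033). AA467197, for which RefSeq gives the synonym Nmes1 and whose human counterpart is a relative of NDUFA4, had 3.20, 4.02, 6.83 and 8.40 CPM in KO_BLM, against 27.3, 34.1, 26.9 and 26.1 CPM in WT_BLM. It fell by a log2 fold change of -2.35 (SE 0.27, adjusted p = 0.00020), with the groups far apart. Macrophage markers, as above, were lower in the same libraries, and their part in this change was not tested.

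For comparison, of 78 mitochondrial ribosomal protein genes 4 were higher and 8 lower, with a median log2 fold change of -0.08, the same as for the oxidative phosphorylation genes. Of 79 tested cytosolic ribosomal protein genes, 0 were higher and 55 lower, with a median of -0.31. The called shares were 15.4% for the mitochondrial and 69.6% for the cytosolic genes, against 41.5% of all tested genes. The 4423 tested genes within the middle range of the CPM of the oxidative phosphorylation genes were called in 39.5% of cases, and the 2003 within the middle range of their transcript length in 41.6%, against 29.0% of the oxidative phosphorylation genes themselves. The shares are descriptions, and no test was made of the difference.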

How the data were processed

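Poly(A)-selected RNA of 8 mouse lung samples was sequenced from stranded TruSeq libraries, per the labels' protocols. The authors deposited raw read counts per gene and FPKM values in 1 annotated table. Cufflinks, HTSeq, DESeq, Trimmomatic and mm10 are named in the submitters' processing notes, without role or version. Aligner, annotation and strand setting: not given in the sources used here. The FPKM values restate the counts: 100% matched count over library total and gene length (relative tolerance 1e-06). Groups and replicate numbers came from sample titles, and the PHT2_KO columns (PHT2 is a synonym of SLC15A3) were assigned to the knockout samples by number.

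Counts were tested with edgeR 4.0.16 (R 4.3.3): genes were kept by filterByExpr at 10 counts and a total of 15, scaled by TMM, and 14746 were tested by the robust quasi-likelihood F test with Benjamini-Hochberg adjustment at 0.05. The common dispersion gave a coefficient of variation of 16.6%. Levels are CPM on TMM-scaled library sizes. Standard errors are log2 fold change / √F. Isoform shares used FPKM and the exact permutation test of scipy 1.17.1. Alternatives used DESeq2 1.42.0, limma 3.58.1 (voom, and log2(FPKM + 1) or log2(FPKM + 0.1)), other factors and filters, a length correction, the replicate block and each library left out. Libraries of 1 group differed by more than sampling noise, with 7.48 to 58.1 chi-square units per degree of freedom.

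The fit was tested on simulated counts of 14786 genes with 200 changed: it recovered 40% of genes changed by a fold of 1.5, 92% at 2 and 100% at 4, with 5.70% false calls. The members, complexes and lists were chosen with earlier results of these data known. Named by rule were, per complex, up to 4 genes of smallest p and the 2 of highest FPKM, and the isoform pairs. So were 4 genes per list, and Ppargc1a, Tfam, Nrf1, Cycs and Ucp2. Other called genes, genes that overlap them, Atp5g2, Ndufb4b, Ndufb4c and the printed promoters were chosen after values were seen. Promoter windows came from RefSeq (GRCm38.p6), which matched 77 of the 97 genes. A gene of complex I is counted in the totals and is not reported here by name.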

Additional observations from a re-analysis of the deposited data

Results flagged for a closer look

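In 13 of 194 checks of 4 libraries, the lowest or highest library stood apart by Dixon's criterion at 95%; chance flags about 1 in 20 such checks. WT_BLM replicate 4 stood above the other wild-type libraries for Ndufb3 (32.4 CPM), Uqcrfs1 (86.9 CPM), Cox5a (101 CPM) and Ndufa4 (126 CPM), and below them for Cox4i2 (31.6 CPM). It was also the only wild-type library with a count of Cox7b2, a share of 0.163% of its pair. WT_BLM replicate 2 stood high for Atp5g1 (63.5 CPM) and AA467197 (34.1 CPM) and low for Uqcrh (95.4 CPM), and WT_BLM replicate 3 high for Surf1 (34.8 CPM). Among knockout libraries, KO_BLM replicate 3 stood high for the summed CPM of complex II (466 CPM) and for Coa3 (53.1 CPM) and KO_BLM replicate 2 low for Cox8b (1.06 CPM).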

How the results depend on the processing

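With library totals alone, 13 of the 27 calls were kept, and without KO_BLM replicate 2, 11 were. With library totals alone, 41.0% of all tested genes were called, and 62.7% of these calls were higher. Of the 93 genes 11 were higher and 6 lower, and the medians of log2 fold change were 0.011 for them and 0.088 for all tested genes. By complex, this gave 4 higher and 0 lower in complex I (median 0.056), 0 lower in complexes II and III, 1 lower in complex IV, and 1 higher and 3 lower in complex V. Uqcrh (0.068), Cox8a (0.011) and Ppa2 (0.041), not called in either fit, changed sign. Fits to FPKM gave similar values. With log2(FPKM + 0.1), 12 were higher and 6 lower (medians 0.0059 and, for all genes, 0.087), with 5 higher and 1 lower in complex I (median 0.053), 0 lower in complexes II to IV, 1 higher and 3 lower in complex V, Uqcrh at 0.063, Cox8a at 0.0059 and Ppa2 at 0.042. With log2(FPKM + 1), 13 were higher and 7 lower (medians 0.0058 and 0.066), with 5 higher in complex I (median 0.052), 1 higher and 0 lower in complex II, 0 lower in complexes III and IV, 1 higher and 3 lower in complex V, Uqcrh at 0.063, Cox8a at 0.0058 and Ppa2 at 0.039. A filter of 1 FPKM gave 12 higher and 7 lower, 1 lower each in complexes I and IV, 0 lower and 0 higher in complex II, 2005 genes lower in all and an all-gene median of 0.067. No filter gave 12 and 7, 4 higher in complex I and an all-gene median of 0.021.

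Other fits moved single complexes. Lower genes of complex I numbered 5 with DESeq2, 5 with the length trend removed (1 higher, as Ndufs7 was lost, all-gene median -0.019) and 8 with limma-voom. The replicate numbers did not pair the libraries: correlations of the deviations of same-numbered libraries were -0.092 to 0.089, and not every library correlated best with its own number. With the replicate block, 22 of the 27 calls were kept, complex I had 1 and complex V 4 lower genes, and with the length trend also removed complex I had 1 higher gene and the all-gene median was -0.017. Genes not called and near 0 changed sign: Cox6a1 at -0.0022 (DESeq2), -0.0023 (RLE factors), -0.031 (length trend), -0.040 (limma-voom), -6.1e-05 (no filter on counts), -0.00046 (block), -0.032 (block with length trend) and -0.00087 (without the 20 most abundant genes); Ndufa7 at -0.017, -0.0021 and -0.016 (length trend, limma-voom, block with length trend); Cox11 at -0.015 and -0.014 under the length corrections; and Nrf1 at -0.0017 (block with length trend). The causes were not tested.

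Leaving out each library gave 5 to 21 lower genes in all, 1 to 2 higher and 0 to 4 lower in complex I, 0 to 2 lower in complex II, 0 to 3 in complexes III and IV and 3 to 7 in complex V. Log2 fold changes ran from -0.041 to 0.049 for Ndufa7, -0.069 to 0.018 for Uqcrh, -0.049 to 0.029 for Cox6a1, -0.011 to 0.058 for Cox11, -0.10 to 0.018 for Ppa2 and -0.035 to 0.095 for Nrf1. Differences in isoform share, in percentage points, ran from 5.29 to 8.15 for Cox4i2, 4.61 to 5.17 for Cox6a2, 5.40 to 7.37 for Cox6b2, 2.41 to 3.57 for Cox7a1 and 0.995 to 1.23 for Cox8b, in designs whose exact test cannot reach 0.05. Depth limits Cox8b, Cox7a1 and the 4 genes under the filter.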
